A study of Rattus norvegicus with 17 samples.

Results

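Abcb11, Abcb4, Abcg5 and Abcg8 encode the ATP-driven pumps that hepatocytes use to put bile salts, phospholipid and sterols into bile. The 4 genes were picked by symbol, with earlier results of these data known. Each was read from the brightest probe set that the platform annotation gives to that symbol alone. Each had 1 such probe set, so the exporters were 4 of the 14217 genes measured. Their mRNA was followed in the liver of male Harlan Sprague-Dawley rats dosed with isopropylated phenol phosphate (IPP), a mixture of triaryl phosphates used as a flame retardant and plasticizer. Corn oil alone went to 5 vehicle rats, and IPP in corn oil to 3 rats at each of 4 doses, 76.5, 153, 305.5 and 611 mg/kg. All 17 rats were gavaged on 4 successive days, and the left liver lobe of each gave RNA for 1 Affymetrix array. Values are log2 expression after robust multi-array averaging (RMA), so a difference of 1 is a doubling or a halving.

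Bile forms at the canalicular membrane, the small part of the hepatocyte surface that lines the bile canaliculus. Abcb11, the bile salt export pump, drives bile salts across it, and Abcb4 flips phosphatidylcholine to the outer leaflet, where bile salts take it up into mixed micelles. Abcg5 and Abcg8 are half-transporters that work only as a heterodimer and send cholesterol and plant sterols into bile. The farnesoid X receptor FXR (Nr1h4) is known to drive Abcb11 transcription, and the liver X receptors LXR (Nr1h3, Nr1h2) that of Abcg5 and Abcg8.

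Abcg5 and Abcg8 lie next to each other on rat chromosome 6 and are transcribed away from each other. Their start sites are 206 bases apart in the RefSeq promoter table (build GRCr8), so windows of 250 bases before to 50 bases after each start share 295 of 300 bases. Whether either gene uses the run between the starts as a promoter was not tested. The run was picked for display after these genes were seen to move together in the results. It is chr6:15717731-15717935, 205 bases on the + strand of GRCr8, read from the Abcg8 side to the Abcg5 side, with capitals marking each AGATAA, the motif bound by GATA factors:
Abcg8 to Abcg5 intergenic run: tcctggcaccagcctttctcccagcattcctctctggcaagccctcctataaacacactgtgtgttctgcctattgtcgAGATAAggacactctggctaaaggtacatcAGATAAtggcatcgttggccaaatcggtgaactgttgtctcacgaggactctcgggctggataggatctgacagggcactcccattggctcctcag
AGATAA occurred 2 times in it on the printed strand, 126 and 96 bases before the Abcg5 start and 80 and 110 bases before the Abcg8 start. On either strand, 11.6% of 33469 rat windows of 300 bases held AGATAA and 1.09% held it at least 2 times. The nuclear receptor half-site AGGTCA was in 16.2% of windows, the D-box TTATGTAA in 0.893% and the E-box CACGTG in 6.42%, and none of these letters, on either strand, was in the Abcg5, Abcg8 or Abcb4 window. The same held for the perfect consensus of the spaced half-site pairs DR4, IR1 and DR1, found in 0.00598%, 0.0269% and 0.0538% of windows, each of which also contains AGGTCA. The Abcb4 window, on chromosome 4, had 0 AGATAA and a GC content of 74.3%, against 52.2% in the Abcg8 to Abcg5 run and a median of 51.7% over all windows. A match describes letters and does not show that a factor binds there. Abcb11 lies on chromosome 3.

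The 17 arrays resembled each other closely, with pairwise correlations over all probe sets between 0.974 and 0.995. Earlier work on these data set 3 arrays apart, those of 76.5 mg/kg rats 2 and 3 and of 611 mg/kg rat 2. Exporter results that change without them, and calls at 611 mg/kg named here that change, are also given without them. The GAPDH control probe sets, whose difference between the 3' and 5' ends rises as RNA degrades, differed by 2.89 log2 units on 611 mg/kg rat 2 and by 0.93 to 1.56 on the other 16 arrays. The tissue carried the hepatocyte markers, which averaged 13.55 to 13.71 log2 units in vehicle rats and 13.56 to 13.79 at 611 mg/kg. Of these, 0 of 6 passed the test at any dose, though without the 3 arrays Tat rose at 305.5 mg/kg (1.35, adjusted p = 0.0162). Endothelial markers averaged 9.63 to 9.86 in vehicle rats and 9.08 to 9.16 at 611 mg/kg, where 4 of 4 fell, and both measured red cell markers fell there too. Over all genes 2.42% fell and 5.04% rose at 611 mg/kg, and 1.47% fell and 0.753% rose at 305.5 mg/kg. At 305.5 mg/kg endothelial markers averaged 9.06 to 9.51 and 1 of 4 (Pecam1) fell. Kdr also fell there without the 3 arrays (-0.34, adjusted p = 0.0308). Stellate cell markers averaged 7.48 to 7.80 in vehicle rats and 7.12 to 7.26 at 611 mg/kg, where 1 of 6 (Pdgfrb) fell. They averaged 7.12 to 7.41 at 305.5 mg/kg, where Pdgfrb also fell. Without the 3 arrays Lrat fell at 305.5 mg/kg (-0.52, adjusted p = 0.0282) and Reln at 611 mg/kg (-0.43, adjusted p = 0.0392). Macrophage markers averaged 9.48 to 10.05 in vehicle rats, 9.37 to 9.58 at 305.5 mg/kg and 9.43 to 9.84 at 611 mg/kg. Of these, 0 of 5 passed at any dose, though without the 3 arrays Cd163 fell at 305.5 mg/kg (-0.44, adjusted p = 0.0166). Of 5 cholangiocyte markers, Krt7 fell and Epcam rose at 611 mg/kg, and neither passed without the 3 arrays (adjusted p of 0.174 and 0.0625). Of 4 pancreas markers, 1 (Cela1) fell at 305.5 and 611 mg/kg. Of 3 intestinal markers, a tissue that also uses the sterol pair, 0 passed at any dose. The part of these shifts in the exporters' values was not tested, and in bulk liver fewer cells of a type and less RNA per cell cannot be told apart.

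The bile salt pump Abcb11 did not pass the test at any dose, whereas the phospholipid and sterol exporters were lower in the rats given more IPP. Abcb4 fell to 60.3% of its vehicle level at 611 mg/kg, and Abcg8 fell to 45.6% and 46.1% at 305.5 and 611 mg/kg. Abcg5 was at 50.3% and 52.9% at those doses and missed the threshold in both comparisons. The plot of log2 values by rat shows all of them.

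**Figure D1:**
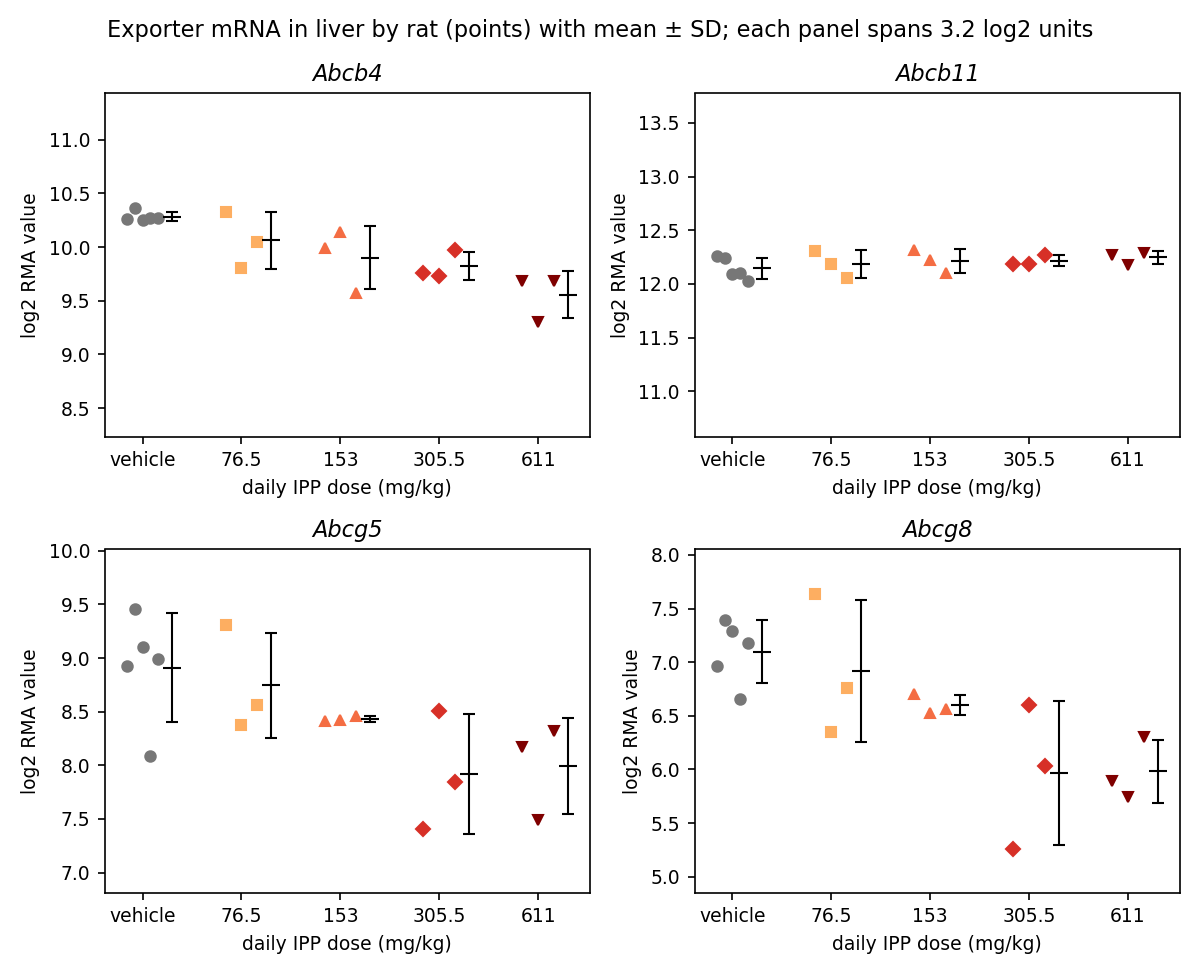
Log2 RMA value of each exporter in each liver (points) against daily IPP dose in mg/kg, with group mean and SD beside the points; n = 5 vehicle rats and 3 per dose, and each panel spans the same number of log2 units. Abcb11 stays level around 12.14 to 12.25, while the 611 mg/kg rats lie below every vehicle rat for Abcb4 and Abcg8.

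Abcb11 (probe set 1368769_at) read 12.26, 12.24, 12.09, 12.10 and 12.03 in vehicle rats 1 to 5. It read 12.31, 12.19 and 12.05 at 76.5 mg/kg, 12.31, 12.23 and 12.10 at 153 mg/kg, 12.18, 12.19 and 12.27 at 305.5 mg/kg, and 12.27, 12.18 and 12.29 at 611 mg/kg. The ranges of all 5 groups overlapped, and no dose group had all its rats above or below the vehicle rats. Group means ran from 12.14 ± 0.10 (SD, n = 5) in vehicle rats to 12.25 ± 0.06 (SD, n = 3) at 611 mg/kg, and no neighbouring means were farther apart than the spread within groups. The difference from vehicle at 611 mg/kg was 0.10 ± 0.08 log2 units (SE, adjusted p = 0.430). Its 95% confidence interval of -0.06 to 0.27 corresponds to 95.9% to 120% of the vehicle level, so a fall of the size measured for Abcb4 at that dose was outside the interval. At the lower doses the differences were 0.04, 0.07 and 0.07, with adjusted p of 0.909, 0.768 and 0.762.

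Abcb4 (1369161_at), the phosphatidylcholine floppase, fell at the top dose. In vehicle rats 1 to 5 it read 10.26, 10.36, 10.26, 10.27 and 10.27, a spread of 0.04 (SD, n = 5). It read 10.33, 9.80 and 10.05 at 76.5 mg/kg, then 9.99, 10.14 and 9.57 at 153 mg/kg. At 305.5 mg/kg it read 9.76, 9.73 and 9.97, and at 611 mg/kg 9.68, 9.30 and 9.68. Every rat at 153 mg/kg and above was below the lowest vehicle rat, while at 76.5 mg/kg rat 1 was within the vehicle range and the others below it. Among all genes, all 3 rats were below the vehicle range for 3.16%, 4.42%, 7.34% and 7.13% of genes from the lowest to the highest dose, against 0, 1, 2 and 2 of the 4 exporters.

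Group means of Abcb4 stepped down from 10.28 ± 0.04 (SD, n = 5) in vehicle rats through 10.06 ± 0.26, 9.90 ± 0.29 and 9.82 ± 0.13 to 9.55 ± 0.22 (SD, n = 3 each) at 611 mg/kg. The difference from vehicle at 611 mg/kg was -0.73 ± 0.13 (SE, adjusted p = 0.00391), with a 95% confidence interval of -1.01 to -0.45, or 49.6% to 73.3% of the vehicle level. It passed in each of 28 alternative analyses, with adjusted p from 0.00185 to 0.0299, and was -0.60 (adjusted p = 0.00916) without the 3 arrays. The difference at 305.5 mg/kg was -0.46 ± 0.13 (adjusted p = 0.0856), which passed without the 3 arrays (adjusted p = 0.0185). At 76.5 and 153 mg/kg it was -0.22 ± 0.13 (adjusted p = 0.592) and -0.38 ± 0.13 (adjusted p = 0.263). The value at 76.5 mg/kg became 0.05 without the 3 arrays, which left 1 rat at that dose.

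Abcg8 (1369440_at), a half-transporter of the sterol pair, read 6.97, 7.39, 7.29, 6.66 and 7.18 in vehicle rats 1 to 5. At 76.5 mg/kg it read 7.64, 6.35 and 6.76, and at 153 mg/kg 6.70, 6.53 and 6.56. At 305.5 mg/kg it read 5.26, 6.60 and 6.04, and at 611 mg/kg 5.89, 5.74 and 6.31. At the lowest dose rat 1 was above and rat 2 below the vehicle range, at 153 mg/kg rats 2 and 3 were below it, and at both upper doses all 3 rats were below every vehicle rat. Group means were 7.10 ± 0.29 (SD, n = 5), 6.92 ± 0.66, 6.60 ± 0.09, 5.96 ± 0.67 and 5.98 ± 0.29 (SD, n = 3 each) from vehicle upwards.

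Abcg8 differed from vehicle by -1.13 ± 0.27 (SE, adjusted p = 0.0387) at 305.5 mg/kg, which is 45.6% of the vehicle level with a 95% confidence interval of 30.5% to 68.1%. At 611 mg/kg the difference was -1.12 ± 0.27 (adjusted p = 0.0201), or 46.1% (30.9% to 68.9%). At 76.5 and 153 mg/kg it was -0.18 ± 0.27 (adjusted p = 0.875) and -0.50 ± 0.27 (adjusted p = 0.495). Without the 3 arrays the value was 0.54 at 76.5 mg/kg (1 rat left), -1.13 (adjusted p = 0.0107) at 305.5 mg/kg and -1.0 (adjusted p = 0.0376) at 611 mg/kg. The calls were near the threshold. The call at 305.5 mg/kg was lost without any 1 of vehicle rats 1, 2, 3 or 5, 153 mg/kg rat 2, or 305.5 mg/kg rats 1 or 3, with adjusted p from 0.0508 to 0.256, the last without 305.5 mg/kg rat 1 (-0.78). It was also lost when every probe set was tested (adjusted p = 0.0604). At 611 mg/kg it was lost without rat 1 (-1.07, adjusted p = 0.0536) or rat 2 (-1.0, adjusted p = 0.109). Its means at these doses lay under the array medians of 6.29 to 6.40. Without detection calls, how near they came to background is not known, and its part in the size and the calls was not tested.

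Abcg5 (1369455_at), the partner half-transporter, read 8.92, 9.46, 9.10, 8.09 and 8.99 in vehicle rats 1 to 5, so that vehicle rat 4 was the lowest for both half-transporters. At 76.5 mg/kg it read 9.30, 8.38 and 8.56, and at 153 mg/kg 8.41, 8.42 and 8.46. At 305.5 mg/kg it read 7.40, 8.51 and 7.85, and at 611 mg/kg 8.17, 7.49 and 8.32. All groups overlapped the vehicle range, since vehicle rat 4 was lower than 305.5 mg/kg rat 2 and 611 mg/kg rats 1 and 3. Group means were 8.91 ± 0.51 (SD, n = 5), 8.75 ± 0.49, 8.43 ± 0.03, 7.92 ± 0.56 and 7.99 ± 0.44 (SD, n = 3 each).

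Abcg5 differed from vehicle by -0.17 ± 0.29 (SE, adjusted p = 0.892) at 76.5 mg/kg and by -0.48 ± 0.29 (adjusted p = 0.531) at 153 mg/kg. The difference at 305.5 mg/kg was -0.99 ± 0.29 (adjusted p = 0.0865) and at 611 mg/kg -0.92 ± 0.29 (adjusted p = 0.0609), the latter with a 95% confidence interval of 34.7% to 80.5% of the vehicle level. Without vehicle rat 4 these became -1.20 (adjusted p = 0.0221) and -1.13 (adjusted p = 0.0193), and both passed. The value at 611 mg/kg also passed, with adjusted p = 0.0478, without 76.5 mg/kg rat 1 or without 305.5 mg/kg rat 2. Without the 3 arrays it was 0.39 at 76.5 mg/kg (1 rat left), -0.99 (adjusted p = 0.0337) at 305.5 mg/kg and -0.67 (adjusted p = 0.203) at 611 mg/kg.

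**Figure D2:**
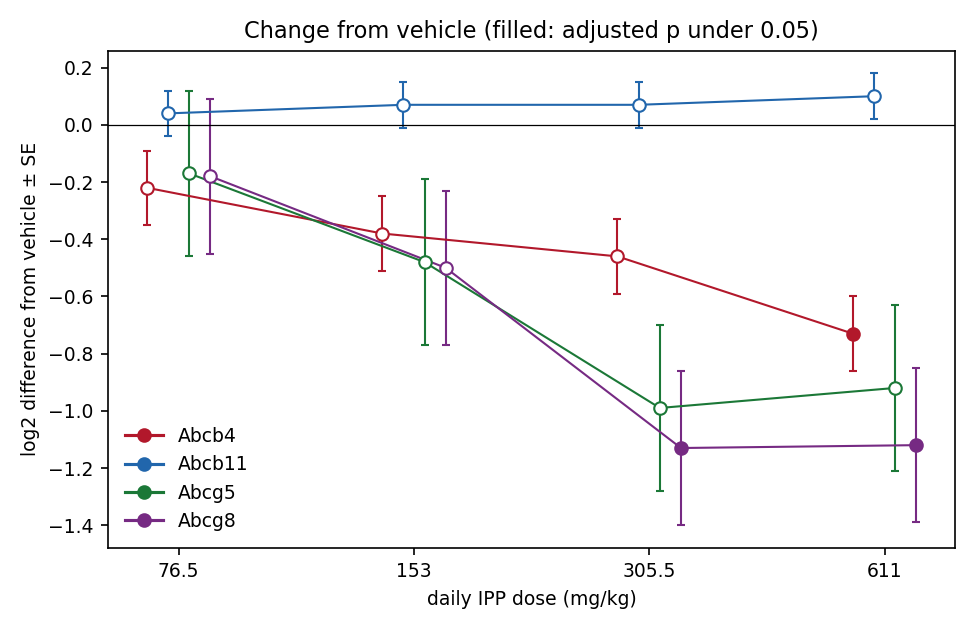
Fitted log2 difference from vehicle (y axis) with its SE for each exporter at each daily IPP dose in mg/kg (x axis, evenly spaced); filled points have an adjusted p under 0.05. Abcb11 lies between 0.04 and 0.10, Abcb4 reaches -0.73, and Abcg5 and Abcg8 lie near -1 at both upper doses.

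Across the 4 exporters, 0 passed in either direction at 76.5 and 153 mg/kg, 1 fell at 305.5 mg/kg (Abcg8), and 2 fell at 611 mg/kg (Abcb4 and Abcg8). At an unadjusted p under 0.05 the counts of exporters were 0, 1, 3 and 3, against 10.7%, 11.9%, 13.5% and 24.2% of all genes, and 0 exporters rose at any dose. Over all genes, limma called 0.127% lower and 0.141% higher at 76.5 mg/kg, 0.338% and 0.408% at 153 mg/kg, 1.47% and 0.753% at 305.5 mg/kg, and 2.42% and 5.04% at 611 mg/kg. These comparisons share the 5 vehicle rats and are not independent of each other.

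Fitted over dose rank (vehicle 0 to 611 mg/kg 4), Abcb4 fell by 0.17 ± 0.03 log2 units per rank (adjusted p = 0.00128), Abcg8 by 0.31 ± 0.06 (adjusted p = 0.00379) and Abcg5 by 0.26 ± 0.06 (adjusted p = 0.0137). The slope of Abcb11 was 0.02 ± 0.02 (adjusted p = 0.409). Thus 3 of 4 exporters had a falling slope, against 2.78% of all genes falling and 3.96% rising. Among treated rats alone the slopes were close in size and did not pass, at -0.16 (adjusted p = 0.261) for Abcb4, -0.34 (adjusted p = 0.208) for Abcg8 and -0.28 (adjusted p = 0.263) for Abcg5. The slopes passed without the 3 arrays, at -0.16 (adjusted p = 0.00133), -0.32 (0.00775) and -0.25 (0.0350) in the same order.

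No exporter passed between neighbouring doses, where adjusted p ran from 0.384 to 0.997 and 0 of 4 had an unadjusted p under 0.05 at any step. From 153 to 305.5 mg/kg the differences were -0.63 ± 0.31 for Abcg8 and -0.51 ± 0.32 for Abcg5. From 305.5 to 611 mg/kg they were 0.02 ± 0.31 and 0.07 ± 0.32, and -0.27 ± 0.15 for Abcb4, so the order of the upper doses was not resolved. Over all genes, limma called 0% between 76.5 and 153 mg/kg and 0% between 153 and 305.5 mg/kg, where 1134 and 1338 genes had an unadjusted p under 0.05. Between 305.5 and 611 mg/kg it called 0.324%.

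Abcb4 and Abcb11 parted from each other with dose. Measured within each rat, the Abcb4 minus Abcb11 difference in log2 value shifted from vehicle by -0.26 at 76.5 mg/kg, -0.45 at 153 mg/kg, -0.53 at 305.5 mg/kg and -0.83 at 611 mg/kg. In a two-sided exact permutation test over rats, the last 3 shifts each had p = 0.0179, the smallest that 56 splits allow, and an adjusted p of 0.0476 over 8 comparisons. The shift at 76.5 mg/kg had an exact p of 0.0357 (adjusted 0.0714). None of the 3 calls held without the 3 arrays (adjusted p of 0.0536, 0.0536 and 0.0952 in the same test). Each was also lost when any 1 rat of the groups compared was left out, with adjusted p up to 0.0952. Abcg5 and Abcg8 did not part detectably. Their difference shifted by 0.02, 0.02, 0.14 and 0.20 from the lowest to the highest dose, with exact permutation p of 0.595 to 0.964 after adjustment.

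**Figure D3:**
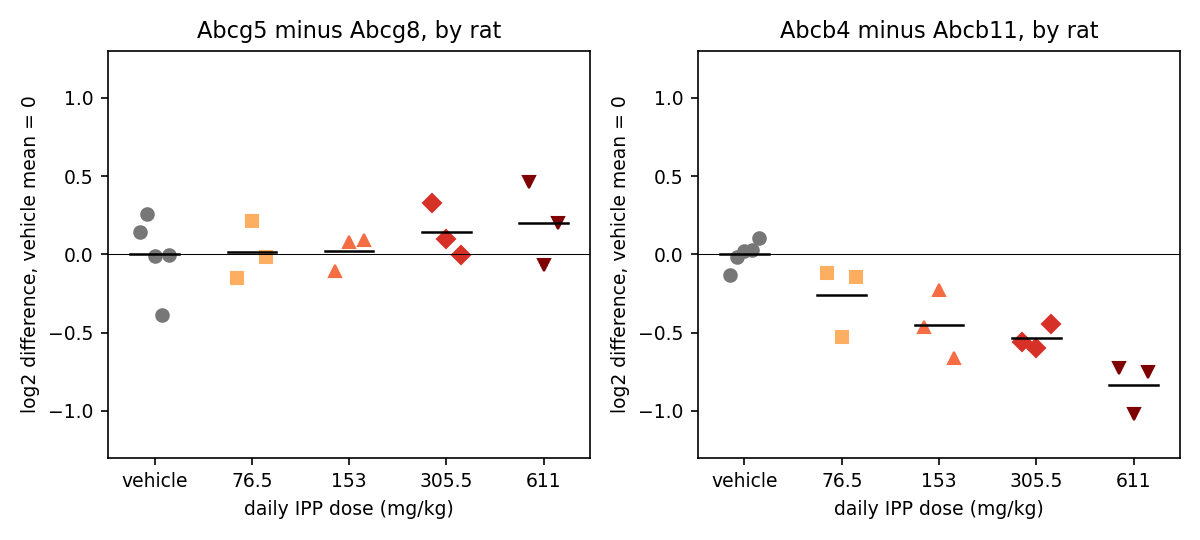
Within-rat difference in log2 value between paired exporters against daily IPP dose in mg/kg, with the vehicle mean set to 0; points are rats and bars are group means. Abcg5 minus Abcg8 stays around 0 (group shifts 0.02 to 0.20), while Abcb4 minus Abcb11 moves down to -0.83 at 611 mg/kg.

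The sterol pair also moved together from rat to rat within groups. With each rat expressed as its deviation from its group mean, Abcg5 and Abcg8 had a Pearson r of 0.89 over 17 rats (exact within-group permutation p = 2.57e-05, adjusted 0.000154 over 6 pairs) and a Spearman rho of 0.89 (adjusted p = 0.000849). The Pearson r was 0.89 without vehicle rat 4 and 305.5 mg/kg rat 2, whose Abcg5 deviations were farthest from the median. No rats were left out by their Abcg8 deviations. Over 13 rats, without the 3 arrays and the rat they left alone at 76.5 mg/kg, it was 0.89 too. The other 5 pairs had r from 0.35 to 0.59, with adjusted p from 0.141 to 0.255 in the same permutation test. Among these, Abcb4 and Abcb11 had r = 0.59 within groups and -0.07 over all arrays with the group means left in. Their within-group r was 0.40 without 153 mg/kg rat 3 and 76.5 mg/kg rat 1, whose Abcb4 deviations were farthest from the median. Over the 13 rats it was 0.59 again, but 0.00 for Abcb4 with Abcg5 and 0.05 for Abcb4 with Abcg8. For Abcb11 it was then 0.19 with Abcg5 and 0.14 with Abcg8. Deviations on an array share its RNA quality and hybridization, whose part was not tested.

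**Figure D4:**
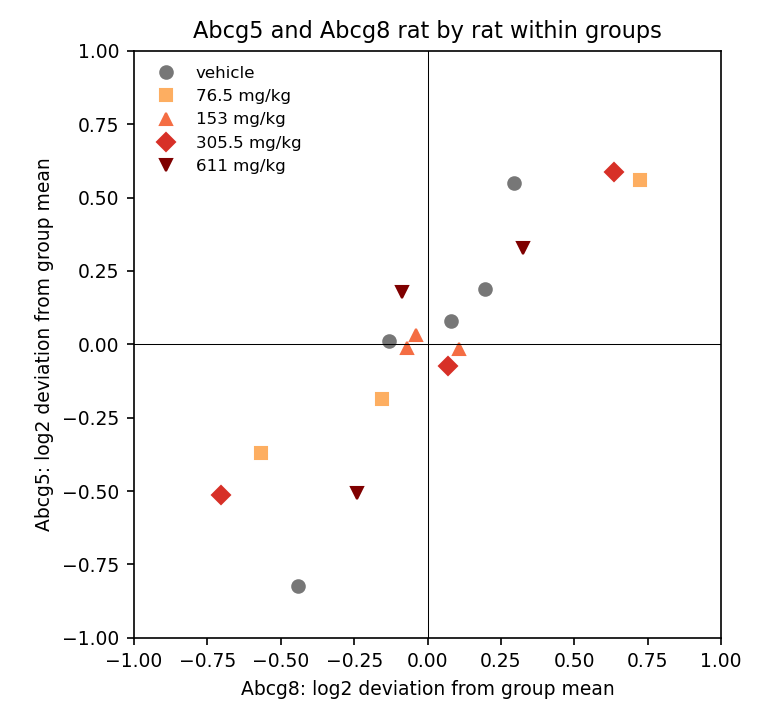
Abcg5 (y axis) against Abcg8 (x axis) in each of 17 rats, both as log2 deviation from the rat's own group mean, with symbols for the dose groups. Rats above their group mean for one gene are mostly above it for the other (r = 0.89).

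In profile over the 17 arrays, each sterol half-transporter was the nearest of 10524 genes to the other (r = 0.948). Next to Abcg5 came Add3, which encodes gamma-adducin (r = 0.869), and Acadm, medium-chain acyl-CoA dehydrogenase (0.859). Next to Abcg8 came Pam, a peptide-amidating enzyme (0.868), and Col4a1, a basement membrane collagen (0.861), of which Col4a1 fell at 611 mg/kg (-0.48 ± 0.12, adjusted p = 0.0206). Abcb4 was most like Cyp4a3, a fatty acid omega-hydroxylase (0.934), Cluh, which binds mRNAs of mitochondrial proteins (0.919), and Pemt, which makes phosphatidylcholine by methylation (0.874). All 3 of those fell at 611 mg/kg, by 0.90, 0.42 and 0.39 log2 units (adjusted p of 0.00570, 0.0170 and 0.0169). Col4a1 and Cluh did not pass without the 3 arrays (adjusted p of 0.0648 and 0.0551). Abcb11 was most like Cyp3a18 (0.773), Fbxo21 (0.758) and Tmem41a (0.749), and none of these passed at 611 mg/kg. Over all genes 2.42% fell and 5.04% rose at 611 mg/kg. Genes picked by r over arrays that include the dose groups tend to share the exporter's change, so these calls are not separate findings. The r values share arrays and dose groups and are descriptions.

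Genes beside the exporters in RefSeq order were looked at after the exporters' values were seen, and they differed in direction. Next to Abcb4, Crot, a peroxisomal carnitine acyltransferase, fell at 305.5 mg/kg (-0.77 ± 0.13, adjusted p = 0.00440) and at 611 mg/kg (-0.65 ± 0.13, adjusted p = 0.00739). On the other side, past Abcb1b (not analysed here), Abcb1a rose at 611 mg/kg (1.18 ± 0.25, adjusted p = 0.00946). Beside the sterol pair, Lrpprc and Dync2li1 differed from vehicle by 0.18 ± 0.13 and -0.02 ± 0.08 at 611 mg/kg and did not pass. Dhrs9, beside Abcb11, differed by -0.20 ± 0.11 and did not pass, while Spc25, a kinetochore gene 2 places away, rose by 1.21 ± 0.21 (adjusted p = 0.00224).

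Related genes were read from 11 lists drawn up with earlier results of these data known, and their counts are descriptions. They are to be read against the 5.04% of all genes that rose and 2.42% that fell at 611 mg/kg. Of 8 other canalicular transporters and partners, 3 rose and 0 fell at 611 mg/kg, with a median difference of 0.16 log2 units against 0.00 over all genes. These were the organic anion pump Abcc2 (0.47 ± 0.10, adjusted p = 0.00800), the drug pump Abcb1a, and the phospholipid flippase Atp8b1 (0.55 ± 0.12, adjusted p = 0.00911). Of 8 genes for bile salt uptake and basolateral export, 1 rose and 0 fell (median 0.03), the basolateral pump Abcc3. It rose at every dose, though at 76.5 mg/kg not without the 3 arrays (2.45, adjusted p = 0.192, with 1 rat left), and reached 3.55 ± 0.36 (adjusted p = 4.34e-05) at 611 mg/kg, while the bile salt uptake carrier Slc10a1 differed by 0.02 ± 0.08. Of 13 bile acid synthesis and conjugation genes, 2 rose and 0 fell (median 0.14), the 12-alpha-hydroxylase Cyp8b1 (0.82 ± 0.15, adjusted p = 0.00394) and the racemase Amacr (0.63 ± 0.09, adjusted p = 0.000787). Cyp7a1, the rate-limiting enzyme, was 2.05 ± 0.74 higher without passing (adjusted p = 0.102) and had a rising slope over dose rank (0.56 ± 0.16, adjusted p = 0.0372). It passed at 611 mg/kg without the 3 arrays (2.06, adjusted p = 0.0206).

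**Figure D5:**
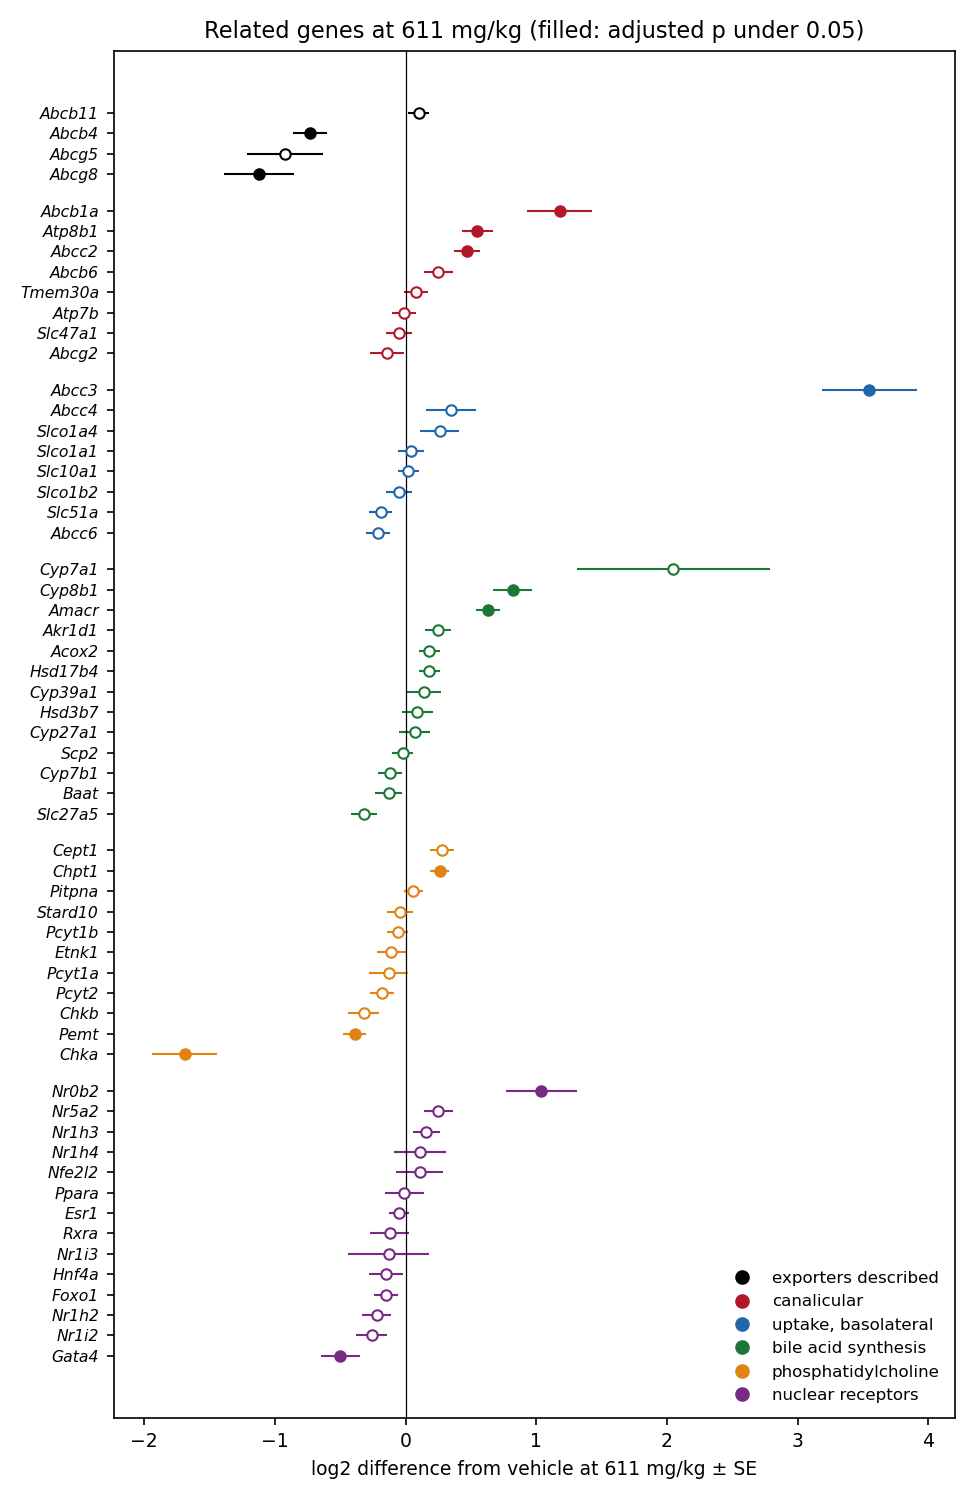
Fitted log2 difference from vehicle at 611 mg/kg with its SE (x axis) for the 4 exporters and the genes of 5 related lists (y axis), coloured by list; filled points have an adjusted p under 0.05. Abcb4 and Abcg8 are filled and below 0, while the filled points among the other canalicular transporters lie above 0.

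Abcb4 needs phosphatidylcholine as cargo, and of 11 measured genes of its synthesis 2 fell and 1 rose at 611 mg/kg (median -0.11), where 2.42% of all genes fell and 5.04% rose. Choline kinase Chka fell by 1.69 ± 0.25 (adjusted p = 0.000696) and Pemt by 0.39 ± 0.09 (adjusted p = 0.0169), while choline phosphotransferase Chpt1 rose by 0.26 ± 0.07 (adjusted p = 0.0338). Of 12 genes for cholesterol uptake, storage and movement, 1 rose and 1 fell (median 0.02), counts near those shares, the neutral ester hydrolase Nceh1 (1.21 ± 0.27, adjusted p = 0.0123) and the sterol-binding Stard5 (-0.54 ± 0.11, adjusted p = 0.00943). Of 8 targets of SREBP2, the sterol-sensing activator of cholesterol synthesis, limma called 0, with 3 at an unadjusted p under 0.05, against 24.2% of all genes, and a median of 0.39. Without the 3 arrays 1 of them, the squalene synthase gene Fdft1, rose (0.71, adjusted p = 0.00520). Of 12 genes for the canalicular membrane and trafficking, 1 rose and 1 fell (median 0.10), the sorting factor Vipas39 (0.30 ± 0.08, adjusted p = 0.0396) and the adhesion molecule Ceacam1 (-0.45 ± 0.09, adjusted p = 0.00818). Vipas39 did not pass without the 3 arrays (adjusted p = 0.0781), and the choline kinase gene Chkb then fell (-0.37, adjusted p = 0.0208).

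Among 14 measured nuclear receptors and cofactors that regulate the exporters, 1 rose and 1 fell at 611 mg/kg (median -0.09), counts near the 5.04% and 2.42% of all genes. Nr0b2, the corepressor SHP, rose by 1.04 ± 0.27 (adjusted p = 0.0287), and the GATA factor gene Gata4 fell by 0.50 ± 0.15 (adjusted p = 0.0483), which did not pass without the 3 arrays (adjusted p = 0.0526). At 305.5 mg/kg Gata4 differed by -0.16 ± 0.15 (adjusted p = 0.716), and its slope over dose rank did not pass (-0.10 ± 0.03, adjusted p = 0.0847). At 611 mg/kg the FXR gene Nr1h4 differed by 0.11 ± 0.20, and the LXR genes Nr1h3 and Nr1h2 by 0.16 ± 0.10 and -0.22 ± 0.11, and none of these passed. Of 10 LXR targets other than the sterol pair, 0 rose and 2 fell (median -0.10), Lpl (-0.98 ± 0.20, adjusted p = 0.00800), which encodes lipoprotein lipase, and Pltp (-0.74 ± 0.15, adjusted p = 0.00658), the phospholipid transfer protein. The LXR targets Abca1 and Srebf1 differed by 0.10 ± 0.23 and -0.26 ± 0.36. Of 7 measured FXR targets, Nr0b2 rose and Pltp fell (median -0.17).

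Clock genes differed between the dosed and the vehicle rats. Of 12 clock and clock output genes, 3 rose and 1 fell at 76.5 mg/kg, and 5 rose and 3 fell at each of the 3 upper doses, with a median of 0.01 at 611 mg/kg. Over all genes the highest shares were those at 611 mg/kg, 5.04% and 2.42%. The repressor genes Nr1d2 and Nr1d1 were higher by 1.35 ± 0.12 and 2.87 ± 0.22 at 76.5 mg/kg and by 2.03 ± 0.12 and 3.28 ± 0.22 at 611 mg/kg (adjusted p of 4.20e-08 and 1.25e-07). The output factor Dbp was higher by 2.34 ± 0.38 at 76.5 mg/kg and 4.18 ± 0.38 at 611 mg/kg (adjusted p = 9.01e-06 at the latter). Without the 3 arrays Dbp at 76.5 mg/kg was again 2.34, with 1 rat left, and did not pass. The activator Npas2 differed by -0.77 ± 0.17 at 76.5 mg/kg, which did not pass (adjusted p = 0.0855), and fell by 1.56 ± 0.17 at 611 mg/kg (adjusted p = 8.40e-05). The gene that fell at 76.5 mg/kg was Cry1 (-0.93, adjusted p = 0.0204), which was -1.06 there without the 3 arrays, with 1 rat left. At 611 mg/kg Cry1 and Bmal1 fell (-1.11 and -2.21, adjusted p of 7.17e-04 and 1.31e-04) and Tef rose (1.07, adjusted p = 1.31e-04). At 76.5 mg/kg 2 clock genes rose and 0 fell without the 3 arrays, and the counts at the upper doses were 5 and 3 as before. The part of these shifts in the exporters' values was not tested.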

How the data were processed

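The deposited log2 values were made by the authors through RMA, per the submitters' processing notes. As a method, RMA corrects background, quantile-normalizes arrays and summarises probes, and which software ran it is not stated in the labels. The table has 31099 probe sets and no detection calls, and all its columns were matched to a sample (0 left over). Of these, 57 control probe sets, 436 with several symbols and 9780 with none were left out. The 20826 with 1 symbol in the platform annotation (2016) stood for 14217 genes, each read from its brightest probe set. Current RefSeq gene IDs matched 20758 of them and changed 0 symbols.

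limma 3.58.1 in R 4.3.3 (lmFit, contrasts.fit, eBayes with trend) took 1 factor for the 5 groups over all 17 arrays, and a second fit used dose rank. Benjamini-Hochberg adjustment ran over all genes, and adjusted p under 0.05 was called. The labels describe separate rats, whose number limits the precision. Values of paired exporters were compared by exact permutation over rats, and their deviations from group means correlated with exact permutation within groups. The limma fits were tested on simulated data, and the permutation, correlation and sequence steps were not. Alternatives covered probe set choice, a filter leaving out the dimmest 40% of genes, scaling, variance moderation, array weights, 3 arrays, GAPDH difference, replicate block, groups fitted and each rat left out.

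The exporters and the gene lists were chosen with earlier results of these data known. Named genes were the 4 exporters, the list members that passed (the 4 with the smallest p where more than 5 did), and for each exporter the 3 genes with mean log2 of at least 6 and the highest r. Other genes given beside them (Slc10a1, Nr1h4, Nr1h3, Nr1h2, Abca1, Srebf1, genes that passed only without the 3 arrays, and the chromosomal neighbours) were picked after values were seen. Leaving the 3 arrays out of the lists, nearest genes and within-group correlation was added after seeing the data. Pairing by replicate number was not established: deviations of same-numbered rats correlated from -0.26 to 0.40 (median 0.01), with 10 of 30 pairs over 0.1. Promoter sequence came from RefSeq (GRCr8).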

Additional observations from a re-analysis of the deposited data

Results flagged for a closer look

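Abcb4 in vehicle rat 2 read 10.36 log2 units, while the other 4 vehicle rats read 10.26 to 10.27, a gap that was 0.849 of the group's range. It was the highest vehicle rat, and the distance is small beside the fall at 611 mg/kg. In all, 33 vehicle groups were examined for a rat far from the rest, those of named genes and of the within-rat differences of the exporter pairs. Of these 1 had one, and chance gives about 1 in 20. The pair differences are not independent of their genes.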

How the results depend on the processing

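With 17 arrays, only large changes of a gene as variable as Abcg5 or Abcg8 can pass, and RMA values without detection calls do not show where Abcg8 reaches background. Averaging probe sets changed no exporter value, since each has 1. Leaving out the dimmest 40% of genes removed Abcg8, which then has no value. Neither other scaling moved the median of all genes by more than 0.034.

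Abcb4 at 611 mg/kg kept its direction and call in all 28 alternatives. Abcg8 lost its call at 305.5 mg/kg when every probe set was tested (-1.13, adjusted p = 0.0604). Array weights gave Abcb4 at 305.5 mg/kg -0.41 (adjusted p = 0.0330) and Abcg5 -1.04 (0.0103), both passing. Without the 3 arrays these were -0.46 (0.0185) and -0.99 (0.0337). With the GAPDH difference Abcg5 there was -1.08 (0.0397), and with only the 2 groups fitted Abcb4 was -0.46 (0.00658). At 76.5 mg/kg, signs turned with array weights (Abcb4 0.0038, Abcg5 0.27, Abcg8 0.41) and without the 3 arrays (0.05, 0.39, 0.54), which leaves 1 rat whose spread is assumed from the other groups. None of these passed. The slope among treated rats lost its call for Abcb4 (-0.16), Abcg5 (-0.28) and Abcg8 (-0.34), with fewer rats and a shorter dose range. The causes of the changes with array weights, the GAPDH difference and the 3 arrays were not tested. Without the 611 mg/kg group the Abcg5 slope lost its call (-0.32, adjusted p = 0.0665). Between neighbouring doses, signs that were never called turned for Abcb11 (-0.10 with array weights, -0.10 without the 3 arrays, -0.02 with arrays centred, -0.0041 with quantile normalization) and Abcb4 (0.01 with quantile normalization, 0.03 with array weights).

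Pairing of the rats by replicate number was not established. With the replicate block, Abcg8 was -1.25 (adjusted p = 0.0915) at 305.5 mg/kg and -1.24 (0.0651) at 611 mg/kg, Abcb11 at 76.5 mg/kg was -0.01, and 15, 49, 198 and 387 genes were called from the lowest dose upwards and 327 by slope. Of 15 rats numbered 1 to 3, 10 correlated best with their own number, a hint from the data and not from the design.

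Genes called from the lowest dose upwards numbered 38, 106, 316 and 1060, and 958 by slope. Array weights gave 696, 398, 1114, 1884 and 1448. The first 3 were 11, 314 and 778 without the 3 arrays and 6, 329 and 638 with only the 2 groups fitted, the first 2 were 58 and 199 with the GAPDH difference, and the slope gave 5 among treated rats and 290 without the 611 mg/kg group. At the lowest dose the array weights were 5.04 for rat 1 and 0.31 and 0.27 for rats 2 and 3. Between neighbouring doses 0, 0 and 46 genes were called from the lowest step upwards, and up to 148, 210 and 333 (lowest 0, 0 and 12) under the other settings, with 0 to 9, 0 to 1 and 11 to 81 as each rat was left out.

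With each rat left out in turn, genes called ranged from 11 to 93, 29 to 187, 142 to 525 and 426 to 1488 by dose, and 608 to 1172 by slope. At 76.5 mg/kg Abcb11 ranged from -0.02 to 0.11, Abcg5 from -0.44 to 0.02 and Abcg8 from -0.54 to 0.10. At 305.5 mg/kg Abcg5 ranged from -1.29 to -0.74 and Abcg8 from -1.45 to -0.78, and at 611 mg/kg from -1.13 to -0.67 and from -1.28 to -1.0. From 76.5 to 153 mg/kg Abcb4 ranged from -0.29 to 0.0021, Abcb11 from -0.04 to 0.09 and Abcg8 from -0.60 to 0.04. From 153 to 305.5 mg/kg Abcb4 ranged from -0.24 to 0.04 and Abcb11 from -0.06 to 0.05. From 305.5 to 611 mg/kg Abcg5 ranged from -0.18 to 0.37 and Abcg8 from -0.34 to 0.33.

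Abcg5 minus Abcg8 ranged from -0.08 to 0.10 at 76.5 mg/kg and from -0.08 to 0.08 at 153 mg/kg. Abcb4 minus Abcb11 ranged from -0.56 to -0.35 at 153 mg/kg, -0.58 to -0.50 at 305.5 mg/kg and -0.89 to -0.74 at 611 mg/kg. Fewer splits of the rats remain there, and none of these shifts passed in the exact permutation test. Without the 3 arrays these shifts were -0.45 and -0.53 (adjusted p = 0.0536 each) and -0.74 (0.0952), and the test could not be run at 76.5 mg/kg.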
